A study of Mus musculus with 34 samples.

Results

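The genes described here are 10 markers of liver endothelium, chosen by name: Clec4g, Stab1, Stab2, Lyve1 and Oit3 of sinusoidal cells, Pecam1, Kdr and Cdh5 of endothelium in general, and Rspo3 and Wnt2 of cells lining the central vein. They are 10 of 35976 gene symbols in the expression table, and all 10 were above 0 in 34 of 34 livers. Total RNA was sequenced from whole mouse livers, 1 library a liver. All mice were C57BL/6, homozygous for TetO-Cas9 (Cas9 under a tetracycline-responsive promoter) and for Rosa-rtTA (the transactivator that switches it on). All were given an adeno-associated virus (AAV) with a guide RNA and 3 months of Western diet (high in fat and sugar). Guides against Bcl6 (5 livers), Irs1 (5), Smyd2 (6), Srebf1 (5) and Tbx3 (7) gave the groups labelled knockout (KO). The 6 control livers, 4 with guides against GFP (sgGFP) and 2 with guides against LacZ (sgLacZ), carried the same alleles and diet and were pooled, and all 5 knockouts were compared with these same controls. Which liver cells were cut, in what share, and how old the mice were or of which sex, the labels do not say. The labels number the livers without saying that each is a separate animal, so p-values measure the spread between these samples.

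Liver sinusoids are lined by a fenestrated endothelium without a continuous basement membrane, which takes up hyaluronan, modified lipoproteins and other waste from blood through scavenger receptors and lectins. Endothelial cells at the central vein secrete Wnt ligands and R-spondins. These act on neighbouring hepatocytes through Frizzled, LRP and LGR receptors and maintain the pericentral programme of gene expression.

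Values are FPKM (fragments counted for a gene, scaled for its length and for the depth of the library), as mean ± SD. Changes are differences in log2(FPKM + 1) with their standard error (SE) from limma, adjusted over 19295 genes and called under an adjusted p of 0.05. The depth implied by the values was 2110000 to 3130000 counted reads a library. Stab2 rested on 622 to 1523 reads a liver, Lyve1 on 97 to 428, Oit3 on 58 to 177 and Rspo3 on 71 to 177. For the other 6 markers no single length gave whole reads, so their read numbers are rough estimates from the longest annotated transcript, from 13 to 96 for Wnt2 to 1280 to 3086 for Pecam1, and levels were not compared between genes. Of the targeted mRNAs, Srebf1 stood at 499 to 632 FPKM in 4 Srebf1 KO livers while the controls ran from 1095 to 2177. The library labelled Srebf1 KO replicate 1 had 1908 FPKM, which goes against its label. The ranges of the other 4 targets overlapped those of the controls. Bcl6 and Smyd2 had lower medians in their own knockouts (60.4 against 71.9 and 91.7 against 122 FPKM). Irs1 and Tbx3 had higher ones, against what their labels would give if a knockout lowered the mRNA (28.9 against 22.9 and 104 against 86.1 FPKM). Where the guides cut is not given by the labels. No marker differed between sgGFP and sgLacZ livers (adjusted p of 0.771 or more), a comparison in which 0.0104% of all genes were called.

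Livers of the Bcl6 KO group held more RNA of 3 markers, the lectin Clec4g, the scavenger receptor Stab2 and the VEGF receptor Kdr, and less of none. All genes were called higher in 2.95% of cases and lower in 3.19%. In Irs1 KO livers no marker was higher and 2 were lower, the hyaluronan receptor Lyve1 and the adhesion molecule Pecam1, with 3.24% of all genes called higher and 7.61% lower. No marker passed the test in Smyd2, Srebf1 or Tbx3 KO, where 0%, 0.378% (0.197% higher, 0.181% lower) and 2.54% (1.17% higher, 1.37% lower) of all genes were called. At an unadjusted p under 0.05 these 3 knockouts had 0, 2 (Lyve1 and Pecam1) and 1 (Stab2) markers. In whole tissue, fewer cells of a type and less RNA per cell cannot be told apart. The median change of the 10 markers was 0.23 in Bcl6 KO beside -0.07 over all genes, and 0.05 in Irs1 KO beside -0.12.

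**Figure D1:**
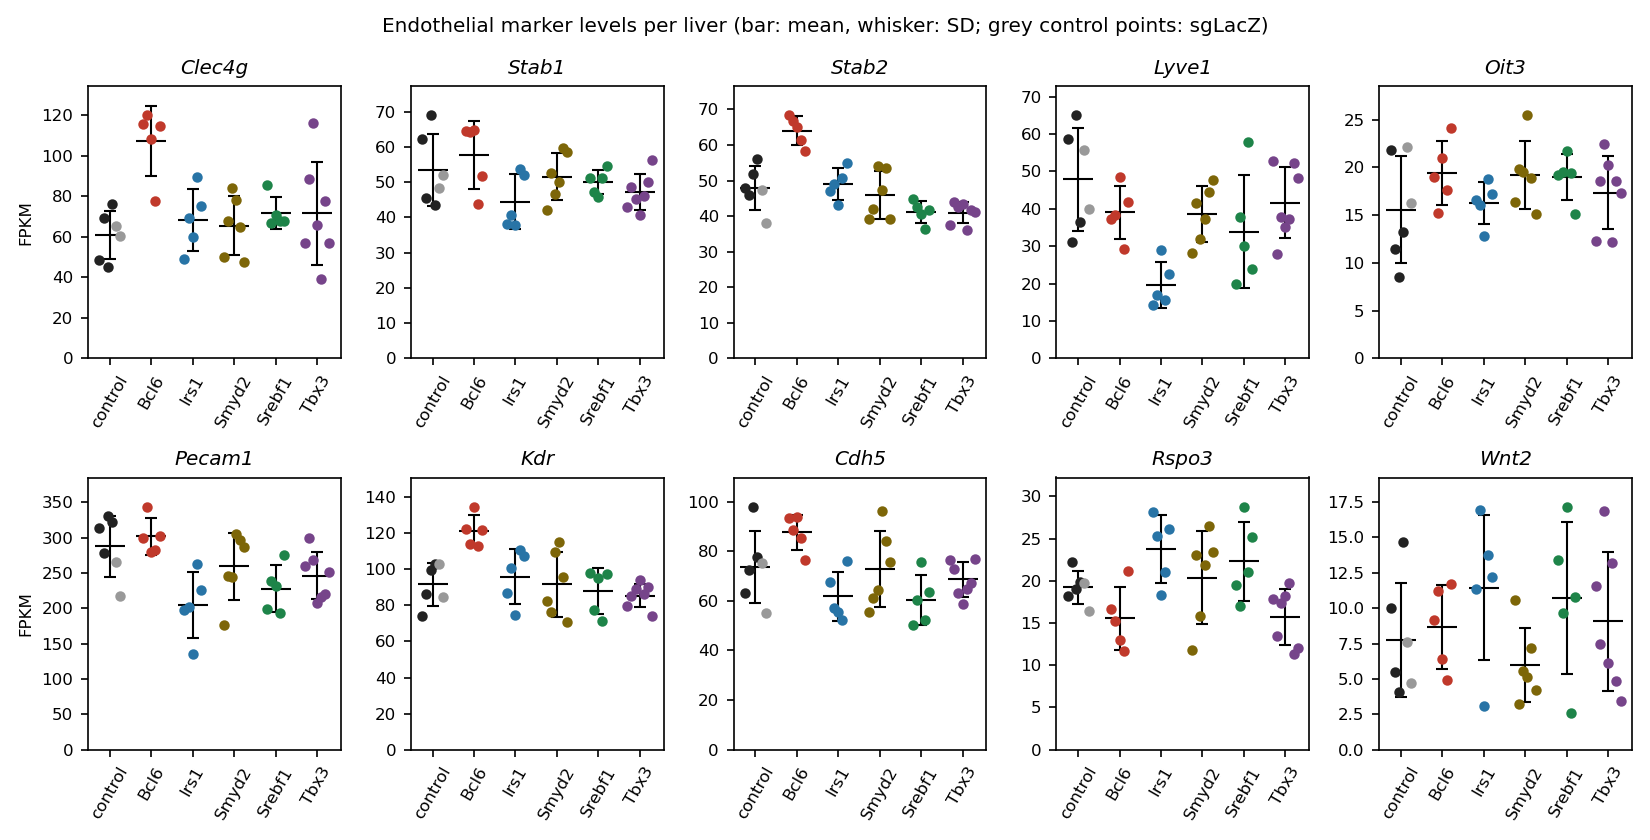
FPKM of each endothelial marker (vertical axis, from 0) in every liver by group, with the mean as a bar and the SD as whiskers, and sgLacZ livers as grey control points. The Bcl6 KO points of Clec4g, Stab2 and Kdr and the Irs1 KO points of Lyve1 lie outside the range of the controls, narrowly for Clec4g replicate 4, while Wnt2 spreads widely in every group.

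Clec4g (chromosome 8, 3707064 to 3720651, minus strand; GRCm38, where GENCODE lists each of the 10 as protein-coding) encodes a C-type lectin that binds glycans on pathogens and cells. In the Bcl6 KO livers it stood at 115, 120, 108, 77.5 and 115 FPKM. The controls ran from 45.1 over a median of 63.0 to 76.1 FPKM. Every Bcl6 KO liver was above every control liver, with replicate 4 just above the highest control; 2.35% of all genes had this order. The means were 107 ± 17.1 (n = 5) and 60.8 ± 12.0 FPKM (n = 6), a log2 change of 0.81 (SE 0.20, limma adjusted p = 0.00903). Of the other knockouts, Tbx3 KO livers spread most, from 39.1 to 116 FPKM, so that its highest liver lay among the Bcl6 KO livers. Means were 68.4 ± 15.3 in Irs1 KO, 65.4 ± 14.7 in Smyd2 KO, 71.7 ± 7.87 in Srebf1 KO and 71.5 ± 25.2 FPKM in Tbx3 KO, and none of these passed against the control. Clec4g was higher in Bcl6 KO than in Irs1 KO by 0.65 (adjusted p = 0.0375), than in Smyd2 KO by 0.72 (0.0243) and than in Tbx3 KO by 0.63 (0.0320), calls lost in 10, 7 and 9 alternatives. The difference from Srebf1 KO did not pass.

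Stab2 (chromosome 10, 86841198 to 87008025, minus strand) encodes the main clearance receptor for hyaluronan in the sinusoid. It stood at 68.4, 66.6, 65.2, 61.4 and 58.3 FPKM in the Bcl6 KO livers and at 38.1 to 56.2 FPKM with a median of 47.6 in the controls. The groups did not overlap. The means were 64.0 ± 4.10 and 47.9 ± 6.08 FPKM, a log2 change of 0.42 (SE 0.10, limma adjusted p = 0.00938). Stab2 was also higher in Bcl6 KO than in each other knockout, with differences of 0.38 from Irs1 KO, 0.48 from Smyd2 KO, 0.62 from Srebf1 KO and 0.63 from Tbx3 KO. The difference from Irs1 KO (adjusted p = 0.0174) lost its call under scaling to the same median (0.244), under quantile normalization (0.0849) and without Irs1 KO replicate 3 (0.0569), and the other 3 held in each alternative run. Lower levels without a call were seen in Srebf1 KO (41.2 ± 3.08) and Tbx3 KO (41.0 ± 3.00 FPKM, unadjusted p = 0.0300).

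Kdr (chromosome 5, 75932827 to 75978458, minus strand) encodes VEGFR2, the main signalling receptor for VEGF-A on endothelium. Its levels in Bcl6 KO were 122, 114, 135, 113 and 122 FPKM, and the controls ran from 73.9 over 92.9 to 103 FPKM. Again no control liver reached the lowest Bcl6 KO liver. The means were 121 ± 8.68 and 91.7 ± 11.9 FPKM, a log2 change of 0.41 (SE 0.12, limma adjusted p = 0.0419). Kdr was higher in Bcl6 KO than in Smyd2 KO by 0.42, than in Srebf1 KO by 0.47 and than in Tbx3 KO by 0.50, calls lost in 10, 4 and 1 alternatives. The other 4 knockouts had means of 85.5 to 96.0 FPKM, close to the control.

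The 3 calls differed in how firmly they held. Clec4g lost its call without the 5 libraries of lowest summed FPKM, of which 3 are sgGFP controls (change 0.65, adjusted p = 0.125). Stab2 lost it with sgGFP livers alone as control (0.34, adjusted p = 0.0704) and in a fit of the 2 groups alone (adjusted p = 0.0627). Kdr lost it in 13 alternatives, among them leaving out any Bcl6 KO liver, sgGFP replicate 1 or 2 or sgLacZ replicate 2 (adjusted p up to 0.114) and the 5 libraries of lowest summed FPKM (0.32, adjusted p = 0.223).

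Promoter stretches of the 3 genes called higher in Bcl6 KO are shown. BCL6 is a DNA-binding repressor, and its sites resemble those of STAT factors. Whether it acts on these genes was not tested. The sequences are from RefSeq (GRCm38.p6, minus strand, 5′ to 3′), and end just before the annotated gene. They lie at chr8:3720652-3720901 (Clec4g), chr10:87008026-87008192 (Stab2) and chr5:75978459-75978705 (Kdr), and capitals mark CAGGAA and TATAAA on either strand.
Clec4g: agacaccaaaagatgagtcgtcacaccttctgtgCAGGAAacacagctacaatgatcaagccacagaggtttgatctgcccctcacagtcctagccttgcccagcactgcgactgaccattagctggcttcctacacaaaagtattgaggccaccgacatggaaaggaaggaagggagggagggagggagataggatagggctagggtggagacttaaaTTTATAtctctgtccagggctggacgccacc
Stab2: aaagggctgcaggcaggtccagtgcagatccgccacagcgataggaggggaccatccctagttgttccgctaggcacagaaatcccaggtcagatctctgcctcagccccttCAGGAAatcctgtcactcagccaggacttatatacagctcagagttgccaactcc
Kdr: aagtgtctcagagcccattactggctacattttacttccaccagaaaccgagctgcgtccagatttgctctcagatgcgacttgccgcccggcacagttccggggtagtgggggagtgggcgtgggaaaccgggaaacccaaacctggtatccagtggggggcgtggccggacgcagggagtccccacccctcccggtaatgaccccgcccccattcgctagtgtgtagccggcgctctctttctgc

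RefSeq promoter windows were at hand for 5 of the 10 markers: these 3, Stab1 and Wnt2. Each was searched on both strands for TTCNNNGAA (the STAT pattern, in 8.3% of 32851 windows of the same length), TTCCTNGAA (a BCL6 pattern that is a subset of it, 1.59%), AGATAA (a zinc finger factor motif, 11.2%), CAGGAA (ETS, 30.6%) and TATAAA (13.6%). The window of Clec4g held CAGGAA 216 bases upstream of the start and TATAAA in reverse 31 bases upstream. The Stab2 window held CAGGAA 138 bases upstream, and that of Stab1 held it at 117 and, in reverse, 13 bases upstream. Distances are counted from the RefSeq start. For Stab2 that start lies inside the annotated gene, so the printed 167 bases stop short of it. The Kdr and Wnt2 windows held no match, and none of the 5 held TTCNNNGAA. A match is a run of letters and not a shown binding site, and the absence of one in these windows says nothing about binding elsewhere.

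Lyve1 (chromosome 7, 110850607 to 110863239, minus strand) encodes a hyaluronan receptor of sinusoids that is also found on lymphatic vessels and some macrophages. In Irs1 KO it stood at 14.2, 16.9, 29.0, 15.5 and 22.5 FPKM. The controls ran from 31.1 over 47.9 to 65.1 FPKM. All 5 Irs1 KO livers were below every control liver, an order found for 5.24% of all genes. The means were 19.6 ± 6.14 and 47.8 ± 13.8 FPKM, a log2 change of -1.24 (SE 0.23, limma adjusted p = 0.000739). The call held in each alternative that was run, with changes of -1.39 to -1.01 and adjusted p of 0.000464 to 0.0128.

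Lyve1 was lower in Irs1 KO than in 3 other knockouts as well. The difference was 0.98 in favour of Bcl6 KO (39.0 ± 7.02 FPKM, adjusted p = 0.00564). It was -0.96 for Irs1 KO minus Smyd2 KO (38.5 ± 7.52 FPKM, adjusted p = 0.0170, and 0.0613 without Irs1 KO replicate 1) and -1.06 for Irs1 KO minus Tbx3 KO (41.7 ± 9.55 FPKM, adjusted p = 0.00707). Against Srebf1 KO (33.9 ± 15.0 FPKM) it was -0.71 and did not pass (adjusted p = 0.145). The Srebf1 KO livers were at 19.98, 37.8, 30.0, 58.0 and 23.8 FPKM, the widest relative spread of Lyve1 in any group, and the lowest of them was the library labelled Srebf1 KO replicate 1.

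Stab2, the other hyaluronan receptor, stood at 43.2 to 55.1 FPKM in Irs1 KO, within the range of the controls, with a log2 change of 0.04 and a 95% interval of -0.17 to 0.25. The difference between the changes of Lyve1 and Stab2 was not tested. Stab1 (chromosome 14, 31139013 to 31168641, minus strand), a related scavenger receptor that is also made by some macrophages, stood at 44.5 ± 7.76 in Irs1 KO against 53.5 ± 10.1 FPKM in control (-0.26, adjusted p = 0.215). Its 5 Irs1 KO livers split into 37.8 to 40.7 FPKM in 3 and 52.0 to 53.8 in 2. In Bcl6 KO, Stab1 was at 57.8 ± 9.60 FPKM (0.11, adjusted p = 0.724), where replicates 4 and 5 were at 43.7 and 51.8 and the other 3 at 64.2 to 64.8 FPKM. It passed in no comparison with control.

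Oit3 (chromosome 10, 59422958 to 59441778, minus strand) encodes a secreted protein with a zona pellucida domain and is made in the liver mainly by sinusoidal cells. Its means were 15.6 ± 5.59 FPKM in control and 16.3 to 19.4 FPKM in the 5 knockouts. The control livers ran from 8.46 over 14.7 to 22.2 FPKM and overlapped every knockout group. All 5 changes were above 0, between 0.13 and 0.36, and none passed (adjusted p of 0.352 to 0.741). The 5 changes share the same controls, of which sgGFP replicate 3 had the lowest Oit3 of all 34 livers.

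Pecam1 (chromosome 11, 106654217 to 106750628, minus strand) encodes CD31, an adhesion molecule of endothelial junctions that platelets and leukocytes carry too. In Irs1 KO it stood at 197, 202, 136, 263 and 227 FPKM, and in the controls from 217 over 297 to 330 FPKM. The groups overlapped, with 3 of 5 Irs1 KO livers below every control liver. The means were 205 ± 46.5 and 288 ± 43.1 FPKM, a log2 change of -0.51 (SE 0.14, limma adjusted p = 0.0203). The call was lost without Irs1 KO replicate 3 (-0.37, adjusted p = 0.0902) or sgGFP replicate 3 (0.0510), in a fit of the 2 groups (0.0757), without the 5 libraries of lowest summed FPKM (0.208) and when each library was scaled to the same median (-0.26, 0.227).

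In Srebf1 KO, Pecam1 stood at 228 ± 33.0 FPKM (-0.33, adjusted p = 0.311) and in Bcl6 KO at 302 ± 25.6 FPKM (0.08, adjusted p = 0.849). Bcl6 KO exceeded Irs1 KO by 0.58 (adjusted p = 0.00829). Under median scaling the adjusted p was 0.0530. Within the controls, the 4 sgGFP livers were at 279 to 330 and the 2 sgLacZ livers at 217 and 266 FPKM (adjusted p = 0.775).

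Cdh5 (chromosome 8, 104101625 to 104144511, plus strand) encodes VE-cadherin, which joins endothelial cells to each other. It passed in no comparison with control. Its livers stood at 93.2, 88.6, 93.8, 85.5 and 76.7 FPKM in Bcl6 KO and at 67.5, 57.2, 55.7, 52.4 and 76.1 FPKM in Irs1 KO. Cdh5 was higher in Bcl6 KO than in Irs1 KO by 0.51 (SE 0.14, adjusted p = 0.0182), a call lost under median scaling (0.0901) and without Irs1 KO replicate 4 (0.0588). It was higher in Bcl6 KO than in Srebf1 KO (60.4 ± 10.02 FPKM) by 0.54 (adjusted p = 0.0140), a call that held in each alternative run. The controls, from 55.1 to 97.9 FPKM, spanned both sides.

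Rspo3 (chromosome 10, 29452416 to 29535867, minus strand) encodes an R-spondin, which binds LGR receptors and strengthens Wnt signalling. Its levels were 16.6, 15.2, 13.0, 11.7 and 21.2 FPKM in Bcl6 KO and 28.1, 25.3, 18.3, 21.0 and 26.2 FPKM in Irs1 KO. The controls lay between, from 16.4 over 19.4 to 22.3 FPKM, and overlapped both. Against control neither passed, with changes of -0.31 (adjusted p = 0.401) and 0.28 (adjusted p = 0.368). The difference between Bcl6 KO and Irs1 KO was -0.59 (SE 0.20, limma adjusted p = 0.0445), with 4 of 5 Bcl6 KO livers below every Irs1 KO liver. That call was lost in 10 alternatives, with adjusted p up to 0.127 when Bcl6 KO replicate 4 was left out. Tbx3 KO had a mean like that of Bcl6 KO (15.7 ± 3.35 FPKM), and Smyd2 KO and Srebf1 KO stood at 20.4 ± 5.48 and 22.3 ± 4.65 FPKM.

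Wnt2 (chromosome 6, 17988940 to 18030585, minus strand) encodes a Wnt ligand of liver endothelium. It was the least precisely measured marker, at 2.62 to 17.2 FPKM over the 34 livers, and the SD was 34.2% to 54.0% of the mean within the 6 groups. In Irs1 KO the livers were at 11.3, 17.0, 3.08, 13.7 and 12.2 FPKM, so that 4 of 5 were above the control mean and the fifth below every control liver. The controls ran from 4.07 over 6.55 to 14.7 FPKM. The change was 0.47 with a 95% interval of -0.36 to 1.30 (adjusted p = 0.507). No change of Wnt2 passed in any comparison.

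**Figure D2:**
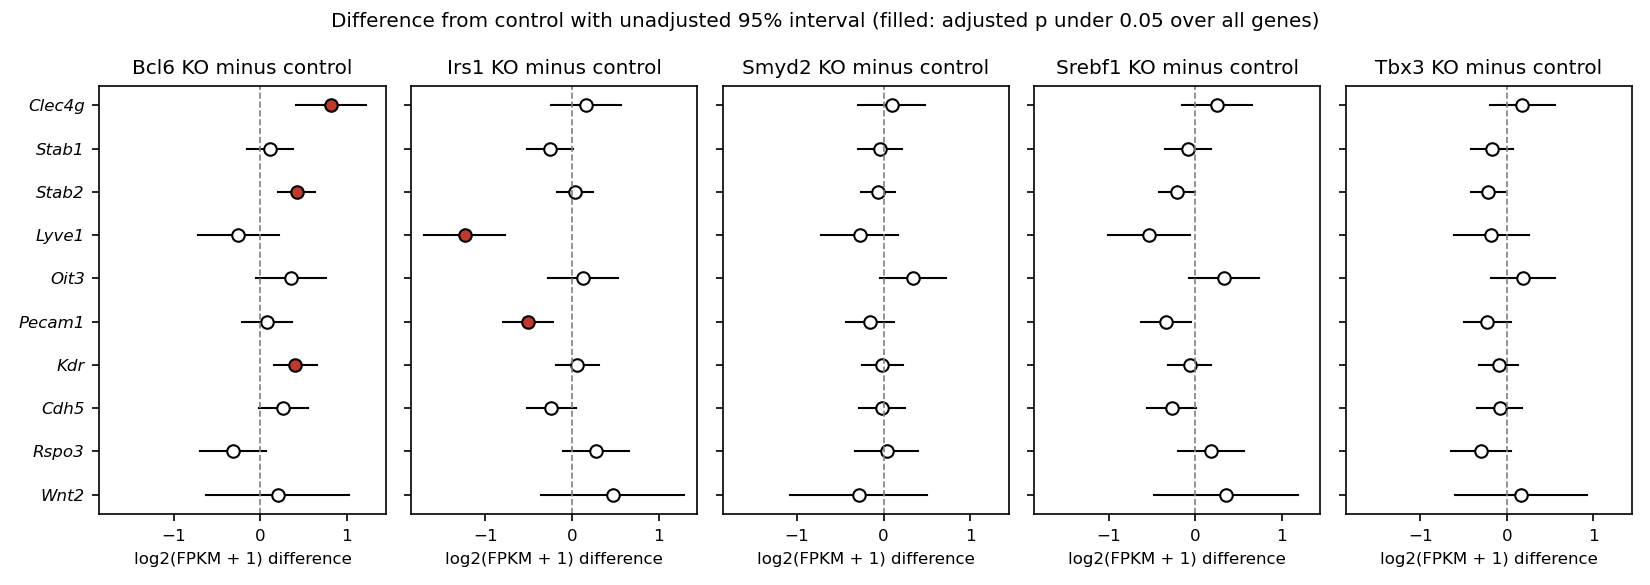
Difference of each marker from control in log2(FPKM + 1) (horizontal axis) for the 5 knockouts, with unadjusted 95% intervals as lines and filled points for an adjusted p under 0.05. Filled points are Clec4g, Stab2 and Kdr to the right of 0 in Bcl6 KO and Lyve1 and Pecam1 to the left of 0 in Irs1 KO.

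Among the 5 knockouts without the controls, 5 of the 10 markers differed by the F test, in which 14.5% of all genes were called. These were Stab2 (adjusted p = 0.000159), Lyve1 (0.00604), Kdr (0.0221), Cdh5 (0.0409) and Rspo3 (0.0489), while Pecam1 (0.0510) and Clec4g (0.0564) lay just outside. The count was 3 when libraries were scaled to the same median, 7 with a filter at 5 FPKM and 2 to 6 when single livers were left out, with 2 without Bcl6 KO replicate 1 or 3. Between pairs of knockouts, Bcl6 KO against Irs1 KO gave 5 markers higher and 1 lower (6.59% and 4.74% of all genes). Bcl6 KO against Smyd2 KO, Srebf1 KO and Tbx3 KO gave 3 higher each (2.8%, 4.08% and 4.27% of all genes), and none lower (3.03%, 4.69% and 5.04%). Irs1 KO against Smyd2 KO and against Tbx3 KO gave 1 lower each, Lyve1 (3.22% and 1.63% of all genes), and none higher (1.04% and 1.19%). The remaining 4 pairs gave none, with 1.6% of all genes called between Irs1 KO and Srebf1 KO, 0.0777% between Smyd2 KO and Srebf1 KO, 0.902% between Smyd2 KO and Tbx3 KO and 0.943% between Srebf1 KO and Tbx3 KO.

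When the 6 groups were ordered by mean for each marker, 46 of 50 neighbouring pairs differed by less than the larger SD of the pair. A single neighbouring pair passed the test, Stab2 in Bcl6 KO above Irs1 KO. Bcl6 KO had the highest mean for 7 markers (Clec4g, Stab1, Stab2, Oit3, Pecam1, Kdr and Cdh5). Irs1 KO had the highest means of Rspo3 and Wnt2 and the lowest of Stab1, Lyve1 and Pecam1, mostly without a call.

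Other genes of the same cells were read from lists. Of 18 further sinusoidal genes, 6 were higher in Bcl6 KO and 0 lower, with a median change of 0.43 beside -0.07 over all genes. In that comparison 2.95% of all genes were called higher and 3.19% lower. Adam23, an ADAM family membrane protein, stood at 89.4 ± 12.7 against 42.9 ± 8.03 FPKM (limma adjusted p = 0.000194). Dnase1l3, a secreted DNase, stood at 131 ± 14.7 against 71.9 ± 18.5 FPKM and the semaphorin receptor Plxnc1 at 35.8 ± 4.21 against 20.5 ± 5.01 FPKM (adjusted p = 0.00143 and 0.00563). Summed over the 18 genes the Bcl6 KO livers held 1958 to 2342 FPKM and the controls 1481 to 1834, without overlap. The count of 6 fell to 2 with sgGFP livers alone as control, to 3 without the 5 libraries of lowest summed FPKM and ranged from 3 to 8 with single livers left out.

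Of 24 further genes of endothelium in general, 3 were higher in Bcl6 KO: the tetraspanin Tspan7 (58.6 ± 5.39 against 28.2 ± 4.53 FPKM), the sphingosine-1-phosphate receptor S1pr1 (46.7 ± 8.69 against 29.2 ± 7.83) and Calcrl, a receptor of the calcitonin family (84.1 ± 6.56 against 60.01 ± 12.6). Their median change was 0.22, and the summed level of the list overlapped the controls. Of 18 genes of continuous vessels 1 was higher, the clotting factor carrier Vwf (31.2 ± 13.2 against 16.2 ± 2.89 FPKM). Of 24 genes of VEGF, Tie and ALK1 signalling none passed in Bcl6 KO, where 2.95% of all genes were called higher and 3.19% lower. The general endothelial count was 1 without the 5 libraries of lowest summed FPKM and in a fit of the 2 groups.

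Irs1 KO had 3.24% of all genes called higher and 7.61% lower. There 1 of the 18 sinusoidal genes was lower, the lysosomal protease Lgmn. Its call was lost in 13 alternatives, among them leaving out any Irs1 KO liver and leaving out the 5 libraries of lowest summed FPKM (adjusted p = 0.129 in the latter). Of the 24 general endothelial genes none was called, with medians of -0.10 and -0.12 beside -0.12 over all genes. Of the 18 continuous vessel genes 4 were lower: the adhesion molecule Vcam1 (24.1 ± 5.40 against 68.2 ± 19.5 FPKM, adjusted p = 0.00395), the Notch ligand Jag1 (8.10 ± 1.54 against 16.9 ± 4.92), the Notch target Hey1 (0.772 ± 1.00 against 4.75 ± 4.29) and Ly6a. That count was 1 without the 5 libraries of lowest summed FPKM, 2 under quantile normalization and 2 to 4 with single livers left out. Hey1, at 0 to 2.11 FPKM in Irs1 KO, lost its call in 9 alternatives. Of the 24 VEGF, Tie and ALK1 genes, Vegfa was higher and 3 were lower: Vegfb (118 ± 16.9 against 243 ± 65.3 FPKM), the co-receptor Nrp2 (98.3 ± 9.57 against 173 ± 31.7) and Notch1 (10.3 ± 1.93 against 16.6 ± 3.67). The count of 1 higher gene fell to 0 in 13 alternatives, among them quantile normalization and most runs with a single liver left out. That of lower ones was 2 to 4 with single livers left out, and Notch1 lost its call in 10 alternatives. Under scaling to the same median the median change of all genes in Irs1 KO moved from -0.12 to 0.08, and the share of calls that were higher from 29.8% to 68.6%. Lyve1 changed by -1.01 on that scale (adjusted p = 0.00163).

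**Figure D3:**
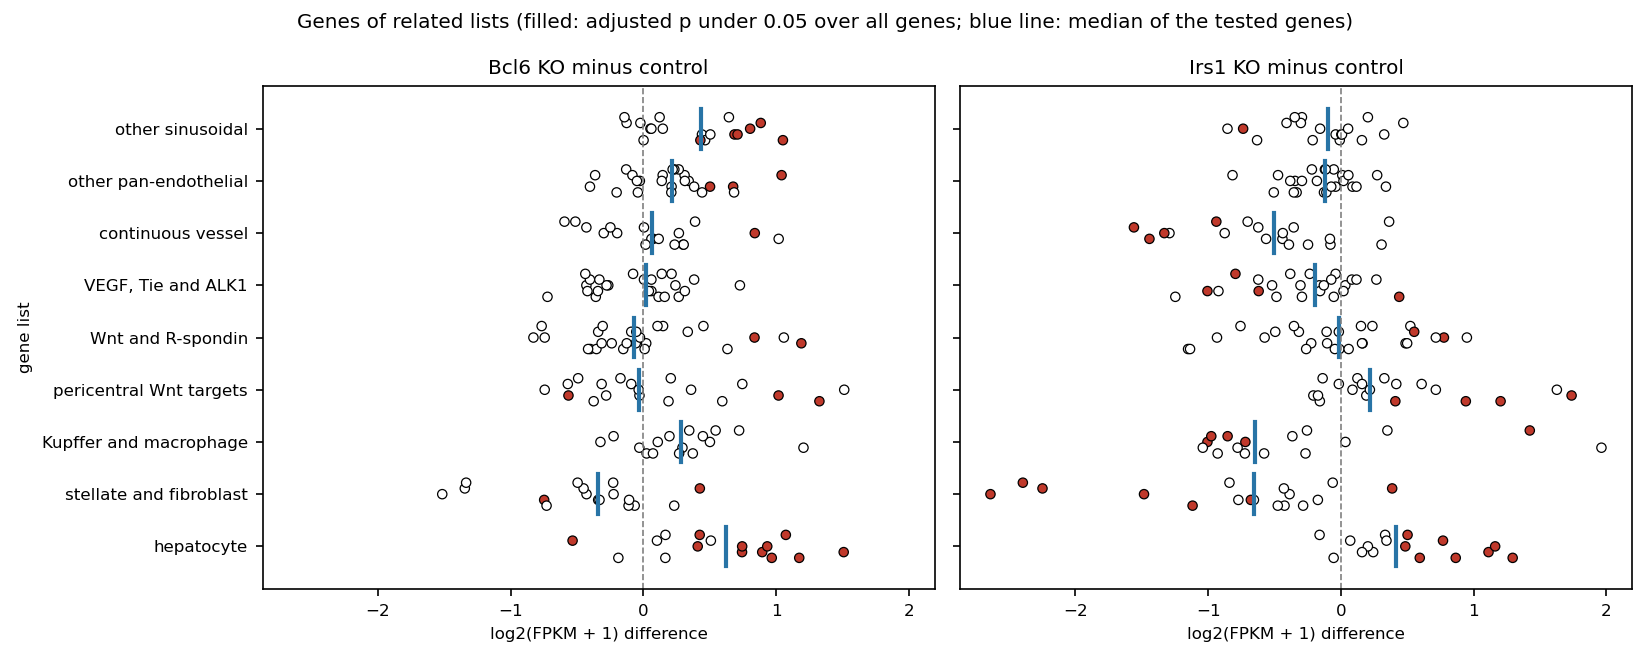
Log2(FPKM + 1) difference from control (horizontal axis) of the tested genes of 9 lists in Bcl6 KO and Irs1 KO, without the 10 markers, filled where the adjusted p was under 0.05, with a blue line at each list's median. The filled points of the other sinusoidal genes lie to the right of 0 in Bcl6 KO, and the macrophage and stellate medians lie left of 0 in Irs1 KO.

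Rspo3 and Wnt2 act through the Wnt pathway, of which 27 of 32 further genes were tested. In Bcl6 KO 2 were higher, the R-spondin receptor Lgr4 (62.8 ± 9.39 against 26.8 ± 2.72 FPKM, adjusted p = 2.46e-05) and the Frizzled receptor Fzd8 (10.1 ± 2.63 against 5.39 ± 2.19). Lgr4 held in each alternative run, while Fzd8 lost its call in 11 (adjusted p up to 0.155), and the count was 1 to 2 with single livers left out. In Irs1 KO 2 were higher, the ligand Wnt2b (5.51 ± 0.436 against 3.48 ± 0.813) and Fzd8 (9.87 ± 3.65), a count that was 6 under median scaling, 0 in a fit of the 2 groups and 0 to 1 with single livers left out. Rspo2 and Rspo4 were listed at 0 in every control liver. Of 19 pericentral genes that Wnt signalling is known to maintain, 2 were higher and 1 lower in Bcl6 KO, the glutamate transporter Slc1a2 (1507 ± 261 against 646 ± 251 FPKM) and the cytochrome Cyp1a2 (345 ± 84.8 against 179 ± 68.1) being higher and the secreted Lect2 lower. In Irs1 KO 4 were higher and 0 lower: Cyp1a2 (561 ± 84.5 FPKM), Gulo (925 ± 98.4 against 697 ± 95.5), Slc1a2 (1145 ± 98.9) and Oat. That count of 4 was 1 without the 5 libraries of lowest summed FPKM and 1 to 5 with single livers left out, and the 2 higher in Bcl6 KO numbered 1 under several alternatives. Lect2 lost its call there in 13 alternatives (limma adjusted p up to 0.200). Over all genes, 2.95% were called higher and 3.19% lower in Bcl6 KO, and 3.24% and 7.61% in Irs1 KO.

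In Srebf1 KO the transcription factor Maf of the sinusoidal list (65.7 ± 11.1 against 110 ± 24.1 FPKM) and the co-receptors Nrp1 (354 ± 41.3 against 570 ± 152) and Nrp2 (105 ± 7.64) were lower. In Tbx3 KO the same 3 genes were lower, Maf at 63.3 ± 9.51, Nrp1 at 308 ± 40.3 and Nrp2 at 111 ± 20 FPKM, against the same controls. Without the 5 libraries of lowest summed FPKM none of these calls held in either knockout. Tbx3 KO also had less Wnt4 (2.48 ± 0.759 against 8.51 ± 5.20 FPKM) and Slc13a3 (12.6 ± 6.44 against 30.3 ± 5.21) and more Rhbg (24.5 ± 6.22 against 10.7 ± 6.61). Slc13a3 held in each alternative run, and Wnt4 and Rhbg lost their calls in 6 and 3. Smyd2 KO had no call among 19295 genes. Over all genes, 0.197% were called higher and 0.181% lower in Srebf1 KO, and 1.17% and 1.37% in Tbx3 KO.

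Markers of other liver cells moved beside the endothelial ones, and their part in the results was not tested. Shares called over all genes were 2.95% higher and 3.19% lower in Bcl6 KO, and 3.24% higher and 7.61% lower in Irs1 KO. In Bcl6 KO 10 of 16 hepatocyte genes were higher and 1 (Tdo2) lower, with a summed level of 194400 to 263300 against 98060 to 127200 FPKM in the controls. In Irs1 KO 8 were higher and 0 lower, with sums of 132700 to 163900 FPKM, also above every control. Of 10 tested cholangiocyte genes 1 was lower in each of these knockouts, Sox9 in Bcl6 KO (9.52 ± 3.16 against 28.0 ± 20.6 FPKM) and Spp1 in Irs1 KO (300.1 ± 116 against 1377 ± 880 FPKM). The cholangiocyte sums were 224 to 522 in Irs1 KO, 462 to 1126 in Bcl6 KO and 668 to 3079 FPKM in the controls, below every control in Irs1 KO. Spp1 alone stood at 171 to 455 FPKM in Irs1 KO and 606 to 2796 FPKM in the controls, so the sums of these groups were mostly Spp1. In Bcl6 KO none of 16 Kupffer cell and macrophage genes passed, with sums of 1341 to 2988 against 1324 to 2471 FPKM in the controls. In Irs1 KO 4 macrophage genes were lower (Csf1r at 154 ± 40.9 against 304 ± 76.1 FPKM, C1qb, C1qc and Mpeg1) and Cd163 was higher, with sums of 975 to 1664 FPKM that overlapped the controls. The count of 4 was 1 without the 5 libraries of lowest summed FPKM and 7 with the livers blocked by replicate number. Of 17 stellate cell and fibroblast genes 6 were lower in Irs1 KO, led by Col3a1 (16.7 ± 6.25 against 96.4 ± 53.2 FPKM), with sums of 1630 to 1920 against 1942 to 3655 FPKM, and Ecm1 was higher. In Bcl6 KO Lrat was lower and Ecm1 higher, calls lost in 3 and 10 alternatives, and Sox9 lost its call there in 6. The count of 1 lower hepatocyte gene in Bcl6 KO fell to 0 in 11 alternatives. In Irs1 KO the count of 1 higher gene fell to 0 in 8 alternatives for macrophage genes and in 9 for stellate genes. Of 7 lymphatic genes, which bear on Lyve1, 5 were tested and none passed in Irs1 KO or Bcl6 KO, and the defining chemokine Ccl21a was listed at 0 in every liver of these groups and the controls. Of 6 platelet genes, which bear on Pecam1, none passed in either. Apart from Prox1 (642 FPKM), the tested lymphatic genes had control means of 0.635 to 4.92 FPKM. The platelet genes summed to 3.45 to 14.4 FPKM in the controls. At such low levels the lack of calls says little about these cells. Leukocytes carry Pecam1 too, and Irs1 KO sums were below every control for 15 lymphocyte genes (153 to 252 against 303 to 589 FPKM) and 8 neutrophil and monocyte genes (46.1 to 73.2 against 106 to 366 FPKM). In each of these lists 1 gene was lower, Ptprc (176 ± 33.9 against 351 ± 96.8 FPKM) and Ccr2 (8.91 ± 3.53 against 39.2 ± 26.5).

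Tbx3 KO had calls in lists of other cells too, while none of the 10 markers was called there. Shares called over all genes were 1.17% higher and 1.37% lower. The stellate genes Lrat (39.3 ± 13.8 against 61.4 ± 10.2 FPKM), Pdgfrb (23.8 ± 11.2 against 43.8 ± 14.1) and Col1a2 (19.9 ± 18.5 against 48.2 ± 28.1) were lower. So was the cholangiocyte gene Cldn7 (1.34 ± 2.32 against 6.81 ± 5.88 FPKM). Of 16 hepatocyte genes 4 were higher, Cps1 (5458 ± 405 against 2554 ± 602 FPKM), Ass1, Hnf4a and Hpd, and Trf was lower. The summed levels of these 3 lists overlapped the controls. Without the 5 libraries of lowest summed FPKM none of the stellate genes and 3 hepatocyte genes were called. Lrat, Pdgfrb, Col1a2 and Cldn7 lost their calls in 10, 10, 12 and 13 alternatives. The stellate count was 0 in a fit of the 2 groups and 0 to 10 with single livers left out.

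The 10 markers differed in how closely they varied together from liver to liver. After the group means were removed, Pearson r over the 34 livers was 0.65 for Stab2 with Kdr, 0.57 for Pecam1 with Cdh5, 0.55 for Stab2 with Pecam1 and 0.50 for Clec4g with Stab2 and for Clec4g with Kdr. Lyve1 went the other way with Wnt2 (r = -0.48) and Kdr (-0.37), and its highest value was 0.38 with Stab1. Rspo3 was at 0.41 with Pecam1 and near 0 with the 5 sinusoidal markers (0.01 to 0.07). Each pair of values comes from the same library, so these values share its depth and scaling and are a description.

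Over the whole table, the gene most like Stab2 by this measure was Gpr182 (r = 0.65), a sinusoidal receptor of the list, followed by Kdr and Klf5. For Kdr it was F8 (0.74), the clotting factor made by sinusoidal endothelium. Lyve1 was most like Pdgfb (0.78), Abcc9 and Egflam, Clec4g most like Ccny (0.79) and Stab1 most like Bin2 (0.76). The nearest genes of Oit3 (Ttc13, 0.69), Pecam1 (Hmha1, 0.69), Cdh5 (Ildr1, 0.75), Rspo3 (Vps72, 0.66) and Wnt2 (Rdx, 0.74) were not on the endothelial lists.

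**Figure D4:**
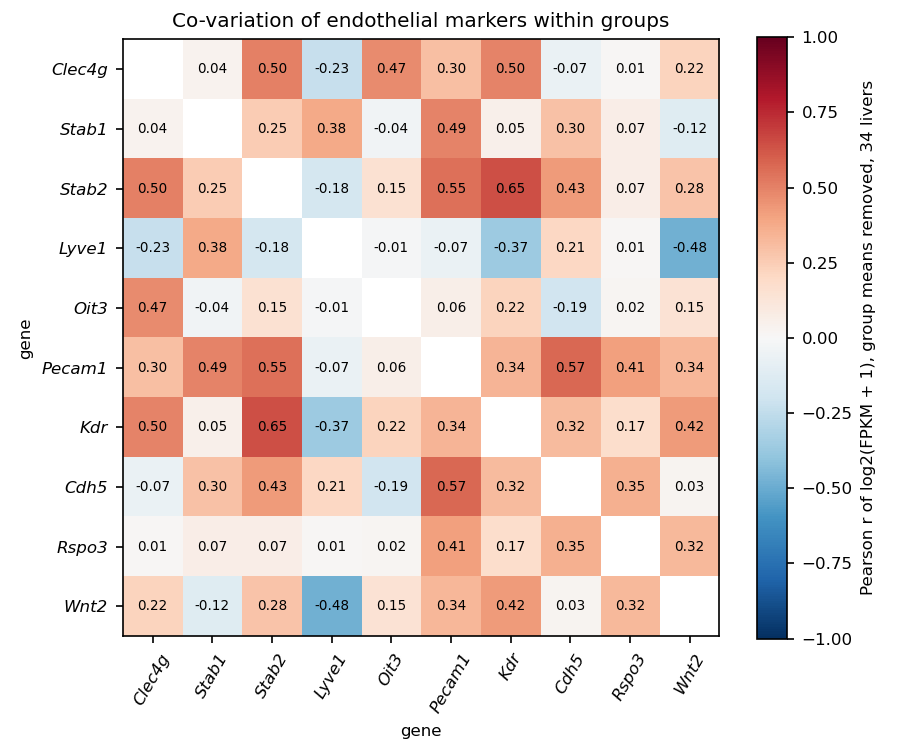
Pearson r between each pair of markers over 34 livers after subtracting group means from log2(FPKM + 1), with both axes listing the 10 genes and colour from -1 to 1. Stab2 with Kdr is the highest pair at 0.65, and Lyve1 with Wnt2 the lowest at -0.48.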

How the data were processed

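Total liver RNA was sequenced in 34 mouse livers, with libraries from a stranded total RNA kit, per the labels' protocols. The authors deposited FPKM values, 1 column a liver, and reads were counted with featureCounts 1.6.4, per the submitters' processing notes, which name mm10 and GRCh38 without their use. The aligner, annotation and strand setting used were not given in the sources used here. Overlapping or antisense genes may share reads. Depth was implied from the steps of low FPKM.

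Values were tested as log2(FPKM + 1) with limma 3.58.1 in R 4.3.3 (1 fit of 34 livers, 6 groups, trended variances, two-sided, Benjamini-Hochberg over the 19295 genes at or above 1 FPKM in 5 libraries or more). The fit was tested on simulated data. The log scale understates changes of low genes. Members and lists were chosen with earlier results of these data known. List genes were named by rule, up to 3 a list and comparison by smallest adjusted p. Others that complete a count of 5 or fewer (such as Ly6a, Oat, Vegfa, Mpeg1, Ecm1), and the livers singled out, were chosen after their values were seen. For each marker, the 3 genes of highest Pearson r were found. Alternatives were another pseudocount, filters, scalings, controls, a fit of 2 groups, a replicate block and each liver left out. Those for pairs of knockouts, lists and the libraries of low FPKM sum were chosen after seeing the data.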

Additional observations from a re-analysis of the deposited data

Results flagged for a closer look

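Among 60 sets of 1 gene in 1 group of livers, 2 held a liver far from the others, and chance marks about 1 in 20 such sets. Clec4g in Bcl6 KO replicate 4 was at 77.5 FPKM, where the next lowest liver of the group was at 108 and the highest at 120 FPKM. Without that liver the change of Clec4g against control was still called. Clec4g in the library labelled Srebf1 KO replicate 1 was at 85.5 FPKM, where the next highest was at 70.9 and the lowest at 66.6 FPKM. This is the library whose Srebf1 level goes against its label.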

How the results depend on the processing

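The 3 markers higher in Bcl6 KO numbered 1 with sgGFP livers alone as control, 1 in a fit of the 2 groups and 1 without the 5 libraries of lowest summed FPKM. The 2 lower in Irs1 KO numbered 1 under median scaling, in a fit of the 2 groups and without those libraries, and 1 to 2 with single livers left out. The 5 that differed among knockouts numbered 3 under median scaling, 3 with the replicate block, 7 with a filter at 5 FPKM, and 2 to 6 with single livers left out. Of 418 recomputed values of called marker changes, 339 kept direction and call and 79 lost the call, and of 930 of uncalled ones 43 changed sign. Of 800 recomputed counts of list genes, 515 stayed within 1.5 times of the main count. Where a call was lost, the cause was not tested.

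Changes near 0 that turned sign were uncalled throughout. With sgGFP alone as control, Pecam1 in Bcl6 KO was -0.05, Stab2 in Irs1 KO -0.04, and in Smyd2 KO Kdr was 0.0039 and Rspo3 -0.0044. Under median scaling Cdh5 was 0.00074 in Irs1 KO, 0.01 in Smyd2 KO and 0.05 in Tbx3 KO, Kdr was 0.02 in Smyd2 KO, 0.07 in Srebf1 KO and 0.04 in Tbx3 KO, and Stab1 was 0.06 in Srebf1 KO. Without the libraries of low FPKM sum, Clec4g was -0.0017, Oit3 -0.06 and Kdr -0.02 in Irs1 KO, Stab1 0.06, Stab2 0.0067 and Cdh5 0.04 in Smyd2 KO, and Stab1 0.06 in Srebf1 KO. With single livers left out, Pecam1 in Bcl6 KO ran from -0.0013 to 0.12, Stab2 and Oit3 in Irs1 KO from -0.03 to 0.08 and from -0.02 to 0.24, and Kdr in Srebf1 KO from -0.12 to 0.0086. Cdh5 in Tbx3 KO ran from -0.16 to 0.0029. In Smyd2 KO, Stab1 ran from -0.09 to 0.04, Kdr from -0.08 to 0.06, Cdh5 from -0.10 to 0.07 and Rspo3 from -0.04 to 0.18.

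The replicate numbers were not used to pair the livers. Same-numbered livers of different groups correlated at -0.16 to 0.16 in their deviations from group means, and no pair of groups had every value above 0.1. Still, 3 of 4 Bcl6 KO livers were most like the sgGFP liver of their own number, and 2 of 2 sgGFP livers most like the sgLacZ one. In the other pairs of groups at most 1 liver was. Whether a batch goes with the numbers was not tested. With the replicate block, Rspo3 in Smyd2 KO was -0.01, Kdr in Bcl6 KO lost its call (adjusted p = 0.0818), and the genes called numbered 1176 in Bcl6 KO, 2489 in Irs1 KO, 133 against 73 in Srebf1 KO and 1931 against 490 in Tbx3 KO. Median scaling moved the share of higher calls from 48.1% to 66.5% in Bcl6 KO, from 52.1% to 72.2% in Srebf1 KO and from 45.9% to 70% in Tbx3 KO. Wnt2 rested on the fewest reads, a rough 13 to 96 a liver, and had an SD of 34.2% to 54.0% of the mean within groups. How much of that spread is counting error was not tested.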

Other observations

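The ratio of Lyve1 to Stab2, both hyaluronan receptors, was taken after their values were seen, so it has no test. It was 0.301 to 0.673 in Irs1 KO with a median of 0.345, and 0.649 to 1.25 in the controls with a median of 1.11. In Bcl6 KO it was 0.477 to 0.745, in Smyd2 KO 0.593 to 1.22, in Srebf1 KO 0.445 to 1.59 and in Tbx3 KO 0.635 to 1.41. A ratio within a liver does not depend on how its library was scaled, and it shows unequal levels of the 2 genes without saying which of them differed.

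The mean of the 10 markers, each centred on its mean over 34 livers in log2(FPKM + 1), was -0.04 to 0.32 in Bcl6 KO with a median of 0.28, -0.41 to 0.10 in Irs1 KO with a median of -0.04, and -0.19 to 0.14 in the controls. The groups overlapped.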
